A study of Mus musculus with 34 samples.

Results

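The CC chemokine genes examined here are Ccl2, Ccl3, Ccl4, Ccl5, Ccl6, Ccl7, Ccl9, Ccl12, Ccl22 and Ccl24. They were chosen by their gene symbols, with earlier results of these data known. All 10 were found among the 52550 genes of a main set of libraries and among the 25498 genes of another set. RNA was sequenced from mouse bone marrow-derived macrophages (BMDM), which are marrow cells matured in a dish for 6 days with 10 ng/ml of the growth factor M-CSF, taken from mice aged 10 to 14 weeks. After a rest of 24 h the cells received 200 mg/dL of low-density lipoprotein (LDL) or vehicle for 24 h. The main set holds 24 libraries in 8 groups of 3. The other set, called batch 1 in the labels, holds 10 libraries with WT and Tet2KO cells, 3 per genotype with vehicle and 2 per genotype with LDL.

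The 4 genotypes all carry Vav-Cre, a transgene that expresses Cre recombinase in blood-forming cells, so the WT controls are Vav-Cre mice too. Dnmt3aKO mice are Dnmt3afl/fl;Vav-Cre, and Tet2KO mice are Tet2fl/fl;Vav-Cre, with loxP-flanked alleles that Cre removes. Jak2VF mice are Jak2V617F/WT;Vav-Cre, with 1 mutant and 1 normal allele. Dnmt3a adds methyl groups to DNA, Tet2 oxidises methylated cytosine, and Jak2 is the kinase behind many cytokine receptors, which the V617F change makes active without ligand. The question put to these cells is how mutations common in clonal hematopoiesis, the outgrowth of a mutant blood stem cell clone, alter the macrophage transcriptome with and without LDL. The labels do not give the number of animals behind a group, whether animals were pooled or whether libraries of a group came from separate cultures, so p-values measure only the spread between these libraries, which may be technical.

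CC chemokines are small secreted proteins with a pair of adjacent cysteines near the start of the mature chain. They bind G protein-coupled receptors on leukocytes and direct their migration. In mice Ccl2, Ccl7 and Ccl12 bind Ccr2 and draw monocytes out of marrow and blood, Ccl3 and Ccl5 act through Ccr1 among other receptors, Ccl4 is a close relative of Ccl3, and Ccl6 and Ccl9 are rodent chemokines that act through Ccr1. Ccl22 binds Ccr4 on T cells, and Ccl24 binds Ccr3 on eosinophils. Macrophages are a main source of the family in inflamed tissue, including the artery wall, where lipid-laden macrophages collect.

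Most members lie side by side on chromosome 11. In GRCm38 coordinates the genes Ccl2, Ccl7 and Ccl12 lie within 67.83 kb, at chr11:82035571-82103400, all on the plus strand. Ccl5, Ccl9, Ccl6, Ccl3 and Ccl4 lie within 138.9 kb, at chr11:83525778-83664683. Ccl22 lies apart at chr8:94745590-94751699 and Ccl24 at chr5:135569937-135573049. The coding stretch around the cysteine pair is printed here for 5 members, to let the Ccr2 ligands and the neighbours Ccl9 and Ccl6 be compared. Each line has 48 bases of the coding sequence of the GENCODE M21 transcript, 5′ to 3′, with the 2 cysteine codons in capitals.
Ccl2: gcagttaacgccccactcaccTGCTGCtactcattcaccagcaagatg
Ccl7: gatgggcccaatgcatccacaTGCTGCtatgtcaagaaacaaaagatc
Ccl12: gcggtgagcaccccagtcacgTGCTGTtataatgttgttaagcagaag
Ccl9: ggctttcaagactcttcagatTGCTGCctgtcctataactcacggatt
Ccl6: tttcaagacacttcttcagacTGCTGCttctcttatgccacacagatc
All 10 members hold such a pair of codons. The transcripts are related but distinct: the longest run of identical bases shared by any 2 members is 25, between Ccl6 and Ccl9, followed by 23 between Ccl2 and Ccl7. How the counting treated reads that match more than 1 gene is not given in the sources used here.

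Total counts per library were 24105237 to 43904761 for the main set, and batch 1 libraries held 15171143 to 44449473. Dnmt3a fell in Dnmt3aKO cells with vehicle (log2 fold change −0.91, adjusted p = 0.000199) but stayed between 32.6 and 36.6 CPM (counts per 1000000 of the scaled library total). Tet2 was 32.8, 38.6 and 32.9 CPM in Tet2KO and 19.9, 28.0 and 32.2 CPM in WT libraries with vehicle. A count summed over a whole gene includes exons outside a deleted part, so it does not check the Tet2KO label. Jak2 fell in Jak2VF cells with vehicle (−0.50, adjusted p = 0.0209), and a count cannot show the V617F change. All 10 macrophage identity markers, among them Csf1r and Adgre1, had counts in every group, with summed levels of 19298 to 33680 CPM for the main set and 22923 to 35228 CPM for batch 1. Stromal markers such as Col1a1 summed to between 7702 and 16357 CPM in the main set, against 417 to 729 CPM in WT and 639 to 3383 CPM in Tet2KO libraries of batch 1. Gfap, a brain gene, was 2.72 CPM in WT LDL library 3 and 4.26 CPM in Tet2KO LDL library 3, against 0.111 to 0.391 CPM in the other LDL libraries of the main set.

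Per kilobase of exon, the order of the members in WT cells with vehicle was Ccl9, Ccl6, Ccl7, Ccl2, Ccl12, Ccl3, Ccl4, Ccl5, Ccl22 and Ccl24, with means from 209 CPM per kb for Ccl9 down to 0.0699 CPM per kb for Ccl24. Only the first 2 neighbours overlapped between libraries, Ccl9 at 186 to 234 and Ccl6 at 155 to 189 CPM per kb. In batch 1 WT cells with vehicle the order began with Ccl6 and Ccl9, at 314 and 284 CPM per kb, followed by Ccl3 at 46.0 and Ccl4 at 23.6. There Ccl2 had 17.8, Ccl7 16.7 and Ccl12 only 0.648 CPM per kb, against 93.8, 113 and 47.5 CPM per kb in the main set. The sets are separate tables, so levels were not tested between them. Together the 10 genes took 0.101% to 0.152% of all counts with vehicle and 0.203% to 0.258% with LDL in the main set.

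**Figure D1:**
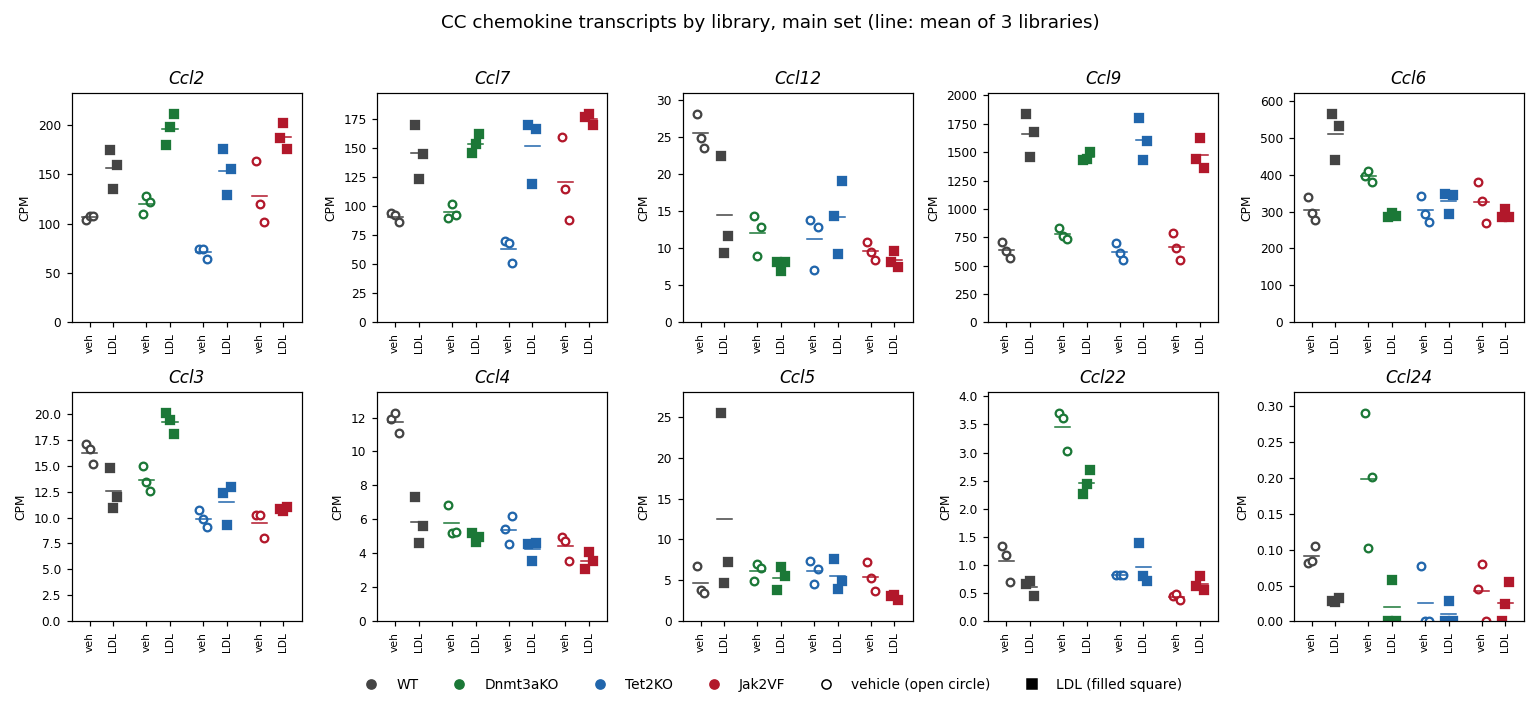
Level of each CC chemokine gene (y axis, CPM, each panel from 0 on its own scale) in each of the 24 libraries of the main set, with genotypes by colour, vehicle as open circles, LDL as filled squares and the mean of 3 libraries as a line. Ccl9 lay at 551 to 831 CPM with vehicle and 1363 to 1838 CPM with LDL, Ccl22 was highest in Dnmt3aKO cells, and Ccl5 was 25.4 CPM in a single WT LDL library.

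LDL raised Ccl2, Ccl7 and Ccl9 in every genotype of the main set. Of the other members, Ccl4, Ccl5, Ccl6 and Ccl22 were called in WT and Ccl3 and Ccl6 in Dnmt3aKO cells. A gene is called where the edgeR quasi-likelihood test gives a Benjamini-Hochberg adjusted p under 0.05 over all 19444 genes tested, of which 9 are members, since Ccl24 had too few counts. In WT cells 7 of the 9 members were called, 5 higher (Ccl2, Ccl5, Ccl6, Ccl7, Ccl9) and 2 lower (Ccl4, Ccl22), where 14.2% of all genes were called, 6.67% higher and 7.58% lower. In Dnmt3aKO cells 5 were called, with Ccl2, Ccl3, Ccl7 and Ccl9 higher and Ccl6 lower, against 15.4% of all genes, 6.41% higher and 8.96% lower. In Tet2KO cells Ccl2, Ccl7 and Ccl9 were called, all higher, against 16.8% of all genes, 8.59% higher and 8.21% lower. In Jak2VF cells the 3 called were again Ccl2, Ccl7 and Ccl9, all higher, against 18.2% of all genes, 8.44% higher and 9.72% lower. These shares of members, between 3 and 7 of 9, lie above the share of all genes called in each genotype. The members were chosen with earlier results of these data known, so this comparison is a description and not a test. The median log2 fold change of the 9 members was 0.55 in WT, −0.19 in Dnmt3aKO, 0.25 in Tet2KO and 0.19 in Jak2VF cells, against medians of 0.00, −0.02, 0.00 and −0.02 over all genes tested. In such bulk samples, fewer cells of a type and less RNA per cell cannot be told apart.

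Some markers of other cells moved with LDL as well. Of 12 neutrophil markers, 4 were called lower in WT, 8 in Dnmt3aKO, 5 in Tet2KO and 9 in Jak2VF cells, and 1, 1, 2 and 1 higher, with median log2 fold changes of −0.47, −1.12, −0.36 and −1.20. Of 6 B cell markers, 0, 3, 5 and 5 were called lower in the same order and none higher, with medians of −0.50, −0.54, −0.71 and −1.06. Of 10 markers of T and NK cells, 1, 1, 2 and 1 were called lower and none higher. Of 8 stromal markers, 0, 3, 4 and 3 were called lower and 1, 1, 0 and 0 higher. Over all genes 7.58%, 8.96%, 8.21% and 9.72% were called lower and 6.67%, 6.41%, 8.59% and 8.44% higher, in the same order. For T and NK cells 1 of 10 is near these shares. With LDL the neutrophil markers summed to 305 to 387 CPM in WT, 833 to 914 CPM in Dnmt3aKO, 185 to 215 CPM in Tet2KO and 465 to 510 CPM in Jak2VF libraries, and the B cell markers to 27.0 to 39.0, 64.0 to 84.4, 44.9 to 74.2 and 16.2 to 19.0 CPM, all with counts in every group. With vehicle the neutrophil sums were 204 to 266, 706 to 759, 79.7 to 114 and 567 to 744 CPM. The neutrophil sum thus rose with LDL in WT, Dnmt3aKO and Tet2KO libraries, opposite to the median of the markers, and fell in Jak2VF libraries. The part of these cells in the LDL changes was not tested.

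**Figure D2:**
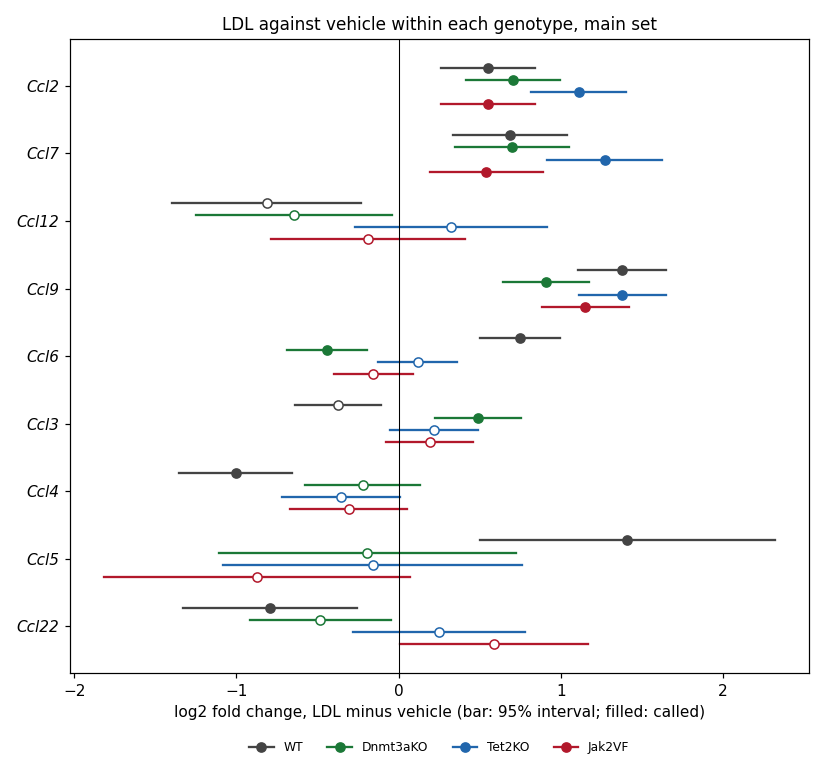
Log2 fold change with LDL against vehicle (x axis) for the 9 members tested (y axis) in each genotype of the main set, with 95% intervals as bars and called genes as filled points. Ccl2, Ccl7 and Ccl9 lie to the right of 0 in the 4 genotypes, whereas Ccl6 is at 0.75 in WT and at −0.44 in Dnmt3aKO cells.

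Ccl2, the main monocyte attractant of the family, was 104, 108 and 108 CPM in WT libraries 1 to 3 with vehicle and 175, 136 and 159 CPM with LDL. In Dnmt3aKO cells it was 110, 128 and 122 CPM with vehicle and 180, 198 and 211 CPM with LDL. In Tet2KO cells it was 74.5, 74.5 and 64.1 CPM with vehicle and 176, 129 and 155 CPM with LDL. In Jak2VF cells it was 164, 120 and 101 CPM with vehicle and 186, 203 and 175 CPM with LDL. No vehicle library overlapped the LDL libraries of its own genotype, and the Tet2KO vehicle libraries were the 3 lowest of all. Over all genes tested, vehicle and LDL libraries did not overlap for 24.8% in WT, 42.9% in Dnmt3aKO, 29.6% in Tet2KO and 32.4% in Jak2VF cells. The log2 fold change with LDL was 0.55 (SE 0.14, adjusted p = 0.00879) in WT, 0.71 (SE 0.14, adjusted p = 0.000957) in Dnmt3aKO, 1.11 (SE 0.14, adjusted p = 7.1e-06) in Tet2KO and 0.55 (SE 0.14, adjusted p = 0.00853) in Jak2VF cells. The rise in Jak2VF cells was not called without vehicle library 2 (0.49, adjusted p = 0.0519) or when the test used the groups compared alone (adjusted p = 0.0655).

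Ccl7, the neighbour of Ccl2 and another Ccr2 ligand, was also higher with LDL in each genotype. It was 93.8, 92.1 and 86.6 CPM in WT libraries with vehicle and 169, 124 and 145 CPM with LDL. In Tet2KO libraries it was 69.7, 68.3 and 50.8 CPM with vehicle and 170, 119 and 166 CPM with LDL. In Dnmt3aKO libraries it ran from 90.01 to 102 CPM with vehicle and from 146 to 162 CPM with LDL, and in Jak2VF libraries from 87.7 to 159 CPM and from 170 to 179 CPM. Vehicle and LDL libraries did not overlap in any of the 4 genotypes. With LDL Ccl7 rose by a log2 fold change of 0.69 (SE 0.17) in WT, 0.70 (SE 0.17) in Dnmt3aKO, 1.27 (SE 0.17) in Tet2KO and 0.54 (SE 0.17) in Jak2VF cells, with adjusted p of 0.00697, 0.00532, 1.4e-05 and 0.0288. The Jak2VF call was lost without any 1 of 5 Jak2VF libraries (vehicle 2 and 3, LDL 1, 2 and 3), with adjusted p from 0.0595 to 0.11, and with the groups compared alone (adjusted p = 0.0964).

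Against WT with vehicle, Ccl2 fell in Tet2KO cells by a log2 fold change of 0.59 (SE 0.14, adjusted p = 0.0134), and every Tet2KO library lay below every WT library. Ccl7 there had a log2 fold change of −0.53 (SE 0.17) that was not called (adjusted p = 0.075), but was without a filter on low counts (adjusted p = 0.00398), with the groups compared alone (adjusted p = 0.0326) and by DESeq2 (adjusted p = 0.039). The Ccl2 call was lost without WT vehicle library 2 (adjusted p = 0.0531) or Tet2KO vehicle library 3 (adjusted p = 0.0764). With LDL neither gene was called in Tet2KO against WT cells, with log2 fold changes of −0.03 (95% interval −0.32 to 0.26) for Ccl2 and 0.05 (−0.29 to 0.40) for Ccl7. The difference of the LDL effect between Tet2KO and WT cells was 0.56 (95% interval 0.15 to 0.97, adjusted p = 0.411) for Ccl2 and 0.58 (0.09 to 1.08, adjusted p = 0.527) for Ccl7, so a larger rise in Tet2KO cells did not pass the test. In Dnmt3aKO and Jak2VF cells neither gene was called against WT, with log2 fold changes from 0.06 to 0.41, except that Ccl7 in Jak2VF cells with vehicle was called without Jak2VF vehicle library 3 (0.59, adjusted p = 0.0209).

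Ccl12, the third Ccr2 ligand of the cluster, moved differently from its neighbours. It was 28.2, 24.9 and 23.5 CPM in WT libraries with vehicle, above all 9 mutant vehicle libraries. Those were 14.3, 8.95 and 12.9 CPM in Dnmt3aKO, 13.8, 7.10 and 12.9 CPM in Tet2KO, and 10.8, 9.56 and 8.36 CPM in Jak2VF cells. Against WT with vehicle it fell in each mutant, with log2 fold changes of −1.08 (SE 0.28, adjusted p = 0.0132) in Dnmt3aKO, −1.17 (SE 0.28, adjusted p = 0.0143) in Tet2KO and −1.41 (SE 0.28, adjusted p = 0.00273) in Jak2VF cells. The 3 comparisons share the WT libraries. The Dnmt3aKO call was lost without Dnmt3aKO vehicle library 2 (adjusted p = 0.0862), and the Tet2KO call without WT vehicle library 1 (adjusted p = 0.0555) or Tet2KO vehicle library 2 (adjusted p = 0.103).

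With LDL, Ccl12 was 22.5, 9.31 and 11.7 CPM in WT libraries, so that library 1 alone stayed near the vehicle level. The LDL effect in WT was −0.81 (SE 0.28, adjusted p = 0.0569) and was called without WT LDL library 1 (−1.28, adjusted p = 0.00245), without a filter on low counts (adjusted p = 0.000613) and by DESeq2 (adjusted p = 0.0273). In Dnmt3aKO libraries with LDL Ccl12 was 8.19, 6.93 and 8.08 CPM, with a log2 fold change of −0.91 (SE 0.29, adjusted p = 0.036) against WT. That call rested on the high WT library: without it the log2 fold change was −0.43 (adjusted p = 0.34). It was also lost without any 1 of the 3 Dnmt3aKO LDL libraries (adjusted p from 0.0749 to 0.111) and with the groups compared alone (adjusted p = 0.0957). In Tet2KO libraries with LDL Ccl12 was 14.4, 9.23 and 19.0 CPM and in Jak2VF libraries 8.14, 9.57 and 7.47 CPM, neither called against WT. The Jak2VF difference was called without WT LDL library 2 (−1.02, adjusted p = 0.0174), without a filter on low counts (adjusted p = 0.00306) and by DESeq2 (adjusted p = 0.0435). The LDL effect in Dnmt3aKO cells (−0.64, adjusted p = 0.158) was called without that filter (adjusted p = 0.0124) and with the groups compared alone (adjusted p = 0.00964).

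Ccl9, which attracts myeloid cells through Ccr1, had the highest level per kilobase of the family in every group of the main set, and LDL raised it in all 4 genotypes. It was 711, 633 and 568 CPM in WT libraries with vehicle and 1838, 1454 and 1678 CPM with LDL. In Dnmt3aKO libraries it was 831, 760 and 734 CPM with vehicle and 1427, 1437 and 1504 CPM with LDL. In Tet2KO libraries it was 697, 608 and 551 CPM with vehicle and 1805, 1428 and 1597 CPM with LDL, and in Jak2VF libraries 785, 656 and 552 CPM and 1440, 1626 and 1363 CPM. The lowest LDL library of the set lay above the highest vehicle library. The rise was 2.60-fold in WT (log2 fold change 1.38, SE 0.13, adjusted p = 1.1e-07), 1.88-fold in Dnmt3aKO (0.91, SE 0.13, adjusted p = 2.09e-05), 2.60-fold in Tet2KO (1.38, SE 0.13, adjusted p = 1.12e-07) and 2.22-fold in Jak2VF cells (1.15, SE 0.13, adjusted p = 1.32e-06). No mutant genotype was called against WT under either treatment, with log2 fold changes from −0.19 to 0.28.

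Ccl6, which lies next to Ccl9 on the same strand, rose with LDL in WT cells and fell in Dnmt3aKO cells. It was 339, 296 and 278 CPM in WT libraries with vehicle and 565, 439 and 531 CPM with LDL. In Dnmt3aKO libraries it was 396, 411 and 379 CPM with vehicle and 286, 297 and 289 CPM with LDL. The groups did not overlap in either genotype, in opposite directions. The log2 fold change was 0.75 (SE 0.12, adjusted p = 9.28e-05) in WT and −0.44 (SE 0.12, adjusted p = 0.0114) in Dnmt3aKO cells, where the fall was not called without vehicle library 2 (adjusted p = 0.0533).

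In Tet2KO libraries Ccl6 was 343, 293 and 273 CPM with vehicle and 347, 295 and 344 CPM with LDL. In Jak2VF libraries it was 381, 330 and 268 CPM and then 286, 307 and 285 CPM. Neither change was called, with log2 fold changes of 0.12 (95% interval −0.13 to 0.36) and −0.16 (−0.40 to 0.09). The LDL effect differed from that in WT by −1.19 (SE 0.17, adjusted p = 0.00117) in Dnmt3aKO, by −0.90 (SE 0.17, adjusted p = 0.00797) in Jak2VF and, without a call, by −0.63 (SE 0.17, adjusted p = 0.188) in Tet2KO cells. The Jak2VF difference was not called with the groups compared alone (adjusted p = 0.0749). With LDL every mutant library lay below every WT library, and Ccl6 was called lower than in WT, with log2 fold changes of −0.81 (SE 0.12, adjusted p = 5.65e-05) in Dnmt3aKO, −0.64 (SE 0.12, adjusted p = 0.00242) in Tet2KO and −0.81 (SE 0.12, adjusted p = 0.000216) in Jak2VF cells. The Tet2KO call was lost with the groups compared alone (adjusted p = 0.144). With vehicle Ccl6 was called in Dnmt3aKO alone (0.38, SE 0.12, adjusted p = 0.041), and this call was lost without any 1 of 5 libraries (WT vehicle 2 and 3, Dnmt3aKO vehicle 1, 2 and 3), with adjusted p from 0.0684 to 0.18.

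Ccl9 and Ccl6 are neighbours whose values differed in response to LDL, and the 250 bases before each start are printed here, 5′ to 3′ on the minus strand, from RefSeq on GRCm38.p6. They are chr11:83578637-83578886 for Ccl9 and chr11:83593088-83593337 for Ccl6. Capitals mark matches to the NF-kappaB letters on either strand, GGG and CC with any 5 bases between them.
Ccl9: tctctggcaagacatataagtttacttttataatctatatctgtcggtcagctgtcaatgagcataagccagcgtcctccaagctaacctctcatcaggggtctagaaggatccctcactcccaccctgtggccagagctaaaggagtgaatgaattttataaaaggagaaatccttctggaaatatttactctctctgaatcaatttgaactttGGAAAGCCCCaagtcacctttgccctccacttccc
Ccl6: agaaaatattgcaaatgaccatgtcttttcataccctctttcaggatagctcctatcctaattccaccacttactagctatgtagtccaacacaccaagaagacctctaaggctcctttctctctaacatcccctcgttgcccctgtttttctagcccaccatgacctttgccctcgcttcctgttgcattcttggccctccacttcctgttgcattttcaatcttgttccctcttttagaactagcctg
The Ccl9 window has 1 NF-kappaB match, beginning 35 bases before the start, and 1 match to the AP-1 letters TGANTCA, beginning 53 bases before it, which do not overlap. The Ccl6 window has neither. Of 32851 RefSeq promoter windows of this length, 45.8% hold the NF-kappaB letters and 6.75% the AP-1 letters. Matches to the GAS letters TTCNNNGAA (7.02% of windows), the ISRE letters, GAAA and GAAA with any 2 bases between (2.98%), and the C/EBP letters TTGCNNAA (9.56%) were absent from both windows. RefSeq windows were at hand for 5 members, Ccl3, Ccl6, Ccl9, Ccl12 and Ccl22, and of these Ccl22 has 2 NF-kappaB matches and Ccl3 and Ccl12 none of the 5 motifs. A match describes letters in a window and was not tied to binding in these cells.

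With vehicle Ccl4 and Ccl12 were called lower than WT in every mutant. Ccl3 lay below all WT libraries in the 3 mutants too, and was called in Tet2KO and Jak2VF. Against WT with vehicle 4 of the 9 members tested were called in each mutant. In Dnmt3aKO cells Ccl4 and Ccl12 were lower and Ccl6 and Ccl22 higher, where 11.1% of all genes were called, 5.58% higher and 5.51% lower. In Tet2KO cells Ccl2, Ccl3, Ccl4 and Ccl12 were lower, where 5.47% of all genes were called, 2.76% higher and 2.72% lower. In Jak2VF cells Ccl3, Ccl4, Ccl12 and Ccl22 were lower, where 9.55% of all genes were called, 4.29% higher and 5.26% lower. With vehicle 4 of 9 is above the share of all genes in each mutant, again as a description of members chosen with earlier results known. With LDL 4 members were called in Dnmt3aKO (Ccl3 and Ccl22 higher, Ccl6 and Ccl12 lower), against 17.5% of all genes, 8.01% higher and 9.46% lower. In Tet2KO cells with LDL Ccl6 alone was called, lower, against 2.76% of all genes, 1.28% higher and 1.48% lower. In Jak2VF cells with LDL Ccl4, Ccl5 and Ccl6 were called, all lower, against 9.97% of all genes, 4.21% higher and 5.75% lower. The median log2 fold change of the members with vehicle was 0.17 in Dnmt3aKO, −0.53 in Tet2KO and 0.06 in Jak2VF cells, against 0.00, −0.01 and 0.00 over all genes. With LDL it was −0.19, −0.04 and −0.21, against −0.03, 0.00 and −0.01.

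**Figure D3:**
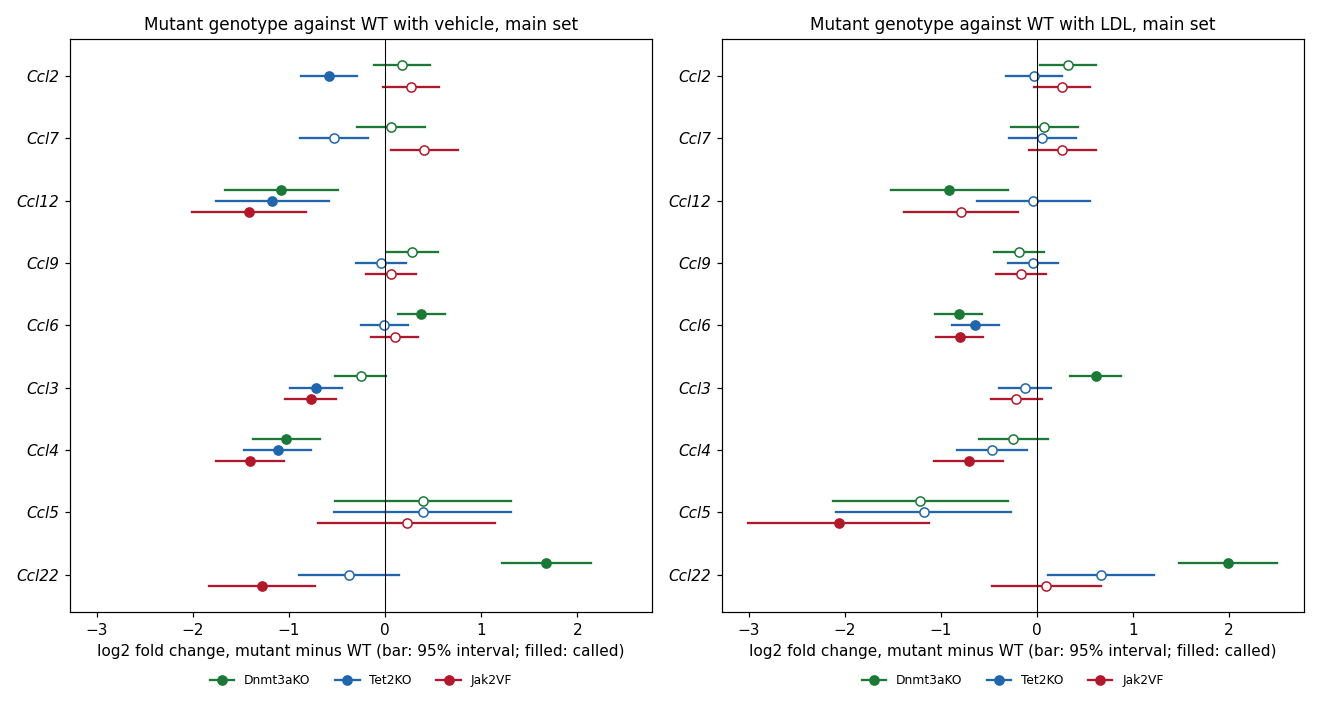
Log2 fold change of each mutant genotype against WT (x axis) for the 9 members tested (y axis), with vehicle at left and with LDL at right, with 95% intervals as bars and called genes as filled points. Ccl12 and Ccl4 lie left of 0 in the 3 mutants with vehicle, Ccl6 does so with LDL, and Ccl22 in Dnmt3aKO lies at 1.68 and 1.99.

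The genotypes also differed in transcripts of other cells. Neutrophil markers, all 12 with counts, summed to 204 to 266 CPM in WT, 706 to 759 CPM in Dnmt3aKO, 79.7 to 114 CPM in Tet2KO and 567 to 744 CPM in Jak2VF libraries with vehicle. B cell markers, all 6 with counts, summed to 36.0 to 52.1 CPM in WT, 105 to 121 CPM in Dnmt3aKO, 81.1 to 96.5 CPM in Tet2KO and 31.8 to 46.3 CPM in Jak2VF libraries with vehicle. Of the 12 neutrophil markers 11 were called higher than in WT in Dnmt3aKO and 10 in Jak2VF cells, while in Tet2KO cells 3 were higher and 6 lower. Of the 6 B cell markers 5 were called higher in Dnmt3aKO, 5 in Tet2KO and 0 in Jak2VF cells. Of the 10 markers of T and NK cells 9 were called higher in Tet2KO cells (median log2 fold change 1.53), while 1 was higher and 2 lower in both Dnmt3aKO (median −0.57) and Jak2VF cells (median −0.56). Their sum was 30.7 to 32.0 CPM in WT, 40.0 to 46.9 CPM in Dnmt3aKO, 63.0 to 67.3 CPM in Tet2KO and 20.3 to 23.1 CPM in Jak2VF libraries, and was mostly Cd4, with means of 23.6 CPM in WT and 39.3 CPM in Dnmt3aKO cells. Their part in the genotype differences was not tested.

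Ccl4, an inflammatory chemokine that attracts T cells and monocytes, was 11.9, 12.3 and 11.1 CPM in WT libraries with vehicle and 7.29, 4.63 and 5.64 CPM with LDL. With vehicle it was 6.85, 5.203 and 5.24 CPM in Dnmt3aKO, 5.42, 4.56 and 6.21 CPM in Tet2KO and 4.997, 4.71 and 3.56 CPM in Jak2VF libraries. The 3 WT vehicle libraries were thus the highest of the set, and all mutant vehicle libraries lay within or below the range of WT cells with LDL. LDL lowered Ccl4 in WT cells (log2 fold change −1.005, SE 0.17, adjusted p = 0.000167). Against WT with vehicle its log2 fold change was −1.03 (SE 0.17, adjusted p = 0.000171) in Dnmt3aKO, −1.12 (SE 0.17, adjusted p = 0.000178) in Tet2KO and −1.41 (SE 0.17, adjusted p = 1.65e-05) in Jak2VF cells. In the mutants the LDL effect was not called, with log2 fold changes of −0.22, −0.36 and −0.31. Its difference from WT was 0.78 (95% interval 0.29 to 1.28), 0.65 (0.15 to 1.15) and 0.70 (0.20 to 1.20), with adjusted p of 0.149, 0.462 and 0.0957, none of them called. With LDL Ccl4 was 3.09, 4.08 and 3.55 CPM in Jak2VF libraries, called lower than in WT (−0.71, SE 0.17, adjusted p = 0.0141), a call lost without WT LDL library 1 (−0.52, adjusted p = 0.113), Jak2VF LDL library 1 (adjusted p = 0.0823) or library 3 (adjusted p = 0.062), and with the groups compared alone (adjusted p = 0.113).

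Ccl3, the neighbour of Ccl4 that binds Ccr1, was 17.0, 16.6 and 15.1 CPM in WT libraries with vehicle and 14.8, 10.9 and 11.9 CPM with LDL. In Dnmt3aKO libraries it was 14.9, 13.4 and 12.5 CPM with vehicle and 20.1, 19.4 and 18.1 CPM with LDL. The Dnmt3aKO libraries with LDL were the 3 highest of the set. LDL raised Ccl3 in Dnmt3aKO cells by 0.49 (SE 0.13, adjusted p = 0.00937) on the log2 scale, a call lost without vehicle library 3 (adjusted p = 0.0565). The effect in WT was −0.37 (SE 0.13, adjusted p = 0.0566), called without WT LDL library 1 (−0.50, adjusted p = 0.0147) and by DESeq2 (adjusted p = 0.0271). The LDL effect in Dnmt3aKO cells was higher than in WT by 0.87 (SE 0.18, adjusted p = 0.0325). This difference was no longer called without any 1 of 8 libraries (WT vehicle 2 and 3, WT LDL 3, Dnmt3aKO vehicle 2 and 3, Dnmt3aKO LDL 1, 2 and 3), with log2 values from 0.81 to 0.92 and adjusted p from 0.0519 to 0.105. It was also lost without WT LDL library 3 and Tet2KO LDL library 3 together, those with Gfap (0.83, adjusted p = 0.0885).

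With LDL Ccl3 was higher in Dnmt3aKO than in WT cells by 0.61 (SE 0.13, adjusted p = 0.00233). With vehicle it was 10.7, 9.88 and 9.07 CPM in Tet2KO and 10.2, 10.2 and 8.01 CPM in Jak2VF libraries, all below the WT libraries, with log2 fold changes of −0.72 (SE 0.13, adjusted p = 0.00118) and −0.78 (SE 0.13, adjusted p = 0.000509). With LDL it was 12.4, 9.26 and 13.0 CPM in Tet2KO and 10.8, 10.7 and 11.02 CPM in Jak2VF libraries, and neither was called against WT.

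Across the 3 mutants, the test of whether the LDL effect differed from that in WT called few members. Ccl3 and Ccl6 were called in Dnmt3aKO, where 0.432% of all genes were called, 0.190% higher and 0.242% lower. Ccl6 was called in Jak2VF, where 2.47% of all genes were called, 1.51% higher and 0.962% lower. No member was called in Tet2KO by edgeR, where 0.103% of all genes were called, 0.0411% higher and 0.0617% lower. In that comparison 8 of the 9 members and 1428 of the 19444 genes had an unadjusted p under 0.05, and DESeq2 called 169 genes, of the members Ccl6. DESeq2 called more genes in all: in Jak2VF 1807 against 480 by edgeR, with Ccl3, Ccl4, Ccl5 and Ccl22 beside Ccl6, and in Dnmt3aKO 458 against 84, with Ccl4 beside Ccl3 and Ccl6. With edgeR Ccl5 (−2.28) and Ccl22 (1.38) in Jak2VF each had an adjusted p of 0.055, and each was called when any 1 of 3 libraries was left out (WT vehicle 1 for Ccl5 or 3 for Ccl22, WT LDL 2 or Jak2VF vehicle 3 for both).

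Ccl5, which draws T cells and monocytes, rested on 1 library. It was 6.77, 3.87 and 3.44 CPM in WT libraries with vehicle and 25.4, 4.68 and 7.25 CPM with LDL, so that WT LDL library 1 stood apart and the other libraries overlapped. The LDL effect in WT was 1.41 (SE 0.44, adjusted p = 0.0332) on the log2 scale, and 0.35 (adjusted p = 0.627) without that library. The call was also lost without WT vehicle library 2 (adjusted p = 0.125) or 3 (adjusted p = 0.151), and with the groups compared alone (adjusted p = 0.221). The same library had 158 CPM of Irf7, an interferon-induced transcription factor, against 22.8 and 26.9 CPM in the other WT LDL libraries. Of the 10 markers of T and NK cells, which also make Ccl5, 1 was called lower with LDL in WT cells and none higher, and the median log2 fold change was 0.11. Over all genes 7.58% were called lower. The marker sum was 30.7 to 32.0 CPM with vehicle and 17.3 to 21.2 CPM with LDL. The call and the median are over all 3 libraries and do not describe library 1 by itself. The part of T and NK cells in its Ccl5 level was not tested.

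In the mutants Ccl5 ran from 3.75 to 7.41 CPM with vehicle and from 2.64 to 7.56 CPM with LDL. Jak2VF libraries with LDL had the 3 lowest values among the LDL libraries, 3.06, 3.25 and 2.64 CPM, and Ccl5 was called lower than in WT with LDL (−2.06, SE 0.45, adjusted p = 0.00716). Without WT LDL library 1 this was −0.99 (adjusted p = 0.11), and with the groups compared alone the call was lost as well (adjusted p = 0.11). In Dnmt3aKO and Tet2KO cells with LDL Ccl5 was not called against WT (−1.21 and −1.18, adjusted p = 0.0592 and 0.208), but was without WT LDL library 2 (−1.59 and −1.56, adjusted p = 0.00659 and 0.0292). Of the 10 T and NK cell markers, 6 were called lower and 0 higher in Jak2VF against WT cells with LDL (median −1.28). Over all genes 5.75% were lower and 4.21% higher there. In Dnmt3aKO cells with LDL 4 of these markers were lower and 1 higher, and in Tet2KO cells 0 and 3. Their sum was 7.23 to 8.89 CPM in Jak2VF and 17.3 to 21.2 CPM in WT libraries with LDL. The part of interferon-induced genes or of T and NK cells in these differences was not tested.

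**Figure D4:**
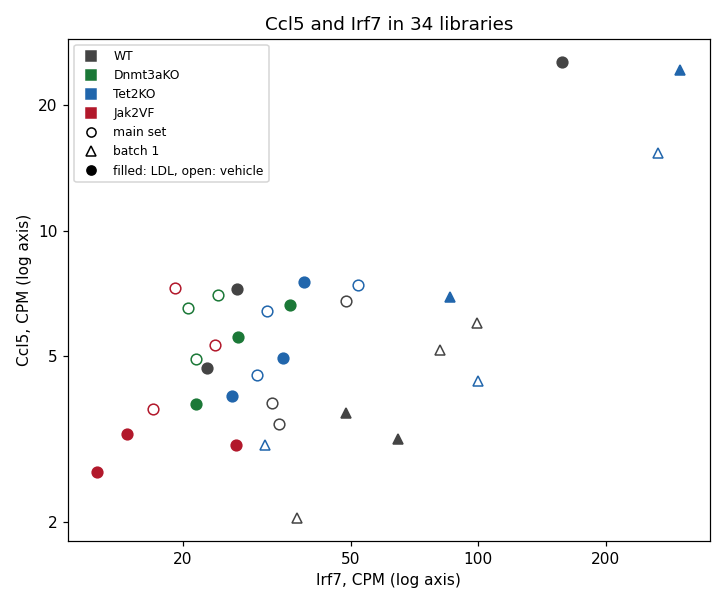
Ccl5 against Irf7 in all 34 libraries, both in CPM on log axes, with genotypes by colour, the main set as circles, batch 1 as triangles, LDL filled and vehicle open. WT LDL library 1 of the main set and the batch 1 libraries Tet2KO vehicle 2 and Tet2KO LDL 1 lie at the upper right, with Irf7 of 158, 266 and 300 CPM and Ccl5 of 25.4, 15.4 and 24.3 CPM.

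Ccl22, a ligand of Ccr4 made by macrophages and dendritic cells, was low in all groups and highest in Dnmt3aKO cells. It was 1.34, 1.19 and 0.708 CPM in WT libraries with vehicle (49, 42 and 27 counts) and 3.70, 3.62 and 3.02 CPM in Dnmt3aKO libraries (153, 142 and 120 counts). With LDL it was 0.668, 0.716 and 0.459 CPM in WT and 2.26, 2.44 and 2.68 CPM in Dnmt3aKO libraries. Each Dnmt3aKO library lay above all libraries of the other genotypes in the main set. Against WT it rose 3.20-fold with vehicle (log2 fold change 1.68, SE 0.22, adjusted p = 1.69e-05) and 3.97-fold with LDL (1.99, SE 0.25, adjusted p = 7.9e-06), and both calls held without any 1 library.

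Ccl22 fell in Jak2VF against WT with vehicle, at 0.456, 0.482 and 0.380 CPM (log2 fold change −1.28, SE 0.27, adjusted p = 0.00335), a call lost with the groups compared alone (adjusted p = 0.0606). In Tet2KO libraries it was 0.827, 0.833 and 0.824 CPM with vehicle and 1.39, 0.813 and 0.722 CPM with LDL, and in Jak2VF libraries with LDL 0.628, 0.802 and 0.550 CPM, none of them called against WT. LDL lowered it in WT (−0.79, SE 0.26, adjusted p = 0.0435), a call lost without WT vehicle library 1 or 2 or WT LDL library 1 or 3 (adjusted p from 0.0858 to 0.176), without a filter on low counts (adjusted p = 0.087) and with the groups compared alone (adjusted p = 0.211). All 10 dendritic cell markers had counts in Dnmt3aKO groups and 9 or 10 in WT groups, and they summed to 16.4 to 20.7 CPM in Dnmt3aKO libraries and to 11.9 to 13.9 CPM in WT libraries. Among them Itgax ran from 6.71 to 9.76 CPM and from 3.67 to 5.40 CPM, and Cd209a was at 0 in all WT LDL libraries and at most 0.0582 CPM in Dnmt3aKO libraries. Of the 8 markers tested, 2 were called higher and 0 lower in Dnmt3aKO against WT with vehicle, and 1 higher and 1 lower with LDL. Over all genes 5.58% were called higher and 5.51% lower with vehicle, and 8.01% and 9.46% with LDL. The markers' part in the Ccl22 difference was not tested.

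Ccl24, an eosinophil attractant, was near the limit of detection. It had 3, 3 and 4 counts in WT libraries with vehicle, 12, 4 and 8 in Dnmt3aKO libraries with vehicle, and 0 to 3 in each other library of the main set. Dnmt3aKO libraries with LDL had 0, 2 and 0 counts. The gene was under the minimum of 10 counts in 3 libraries and was not tested. With that minimum left out, LDL against vehicle in Dnmt3aKO cells gave an adjusted p of 0.0443, the only comparison of Ccl24 under 0.05.

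In batch 1 the Ccr2 ligands were lower than in the main set and stood in another order between WT and Tet2KO cells. Ccl12 was 0.366, 0.250 and 0.428 CPM in WT libraries with vehicle (6, 5 and 9 counts) and 1.90, 3.11 and 1.84 CPM in Tet2KO libraries (54, 81 and 54 counts). With LDL it was 0.414 and 0.157 CPM in WT and 3.35 and 2.71 CPM in Tet2KO libraries. Tet2KO exceeded WT in every library, which held for 10.5% of all genes tested with vehicle and 18.3% with LDL. The log2 fold change was 2.69 with vehicle (SE 0.39, adjusted p = 0.0124) and 3.61 with LDL (SE 0.49, adjusted p = 0.0179), while in the main set Ccl12 was lower in Tet2KO with vehicle. In batch 1 Ccl12 passed the minimum count only through Tet2KO libraries, where it is high. These 2 calls are thus tied to that minimum and are a description. The vehicle call was lost without any 1 of the 3 WT vehicle libraries (adjusted p from 0.0583 to 0.0737), and the LDL call with the groups compared alone (adjusted p = 0.128). With WT LDL library 2 or either Tet2KO LDL library left out, so that 1 library stood for its group and was assumed to vary like the others, the LDL value was 2.86 to 3.76 (adjusted p from 0.0905 to 0.174).

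Ccl2 in batch 1 was 21.4, 19.3 and 19.9 CPM in WT and 24.0, 36.9 and 30.6 CPM in Tet2KO libraries with vehicle, and 14.2 and 13.9 CPM against 28.4 and 32.4 CPM with LDL. Tet2KO lay above WT in every library, as for 10.5% of all genes tested with vehicle and 18.3% with LDL. It was called with LDL (log2 fold change 1.11, SE 0.18, adjusted p = 0.0373), but not with the groups compared alone (adjusted p = 0.134). Leaving out 1 of the 4 LDL libraries leaves 1 in its group, which is then assumed to vary like the other groups, and gave log2 fold changes from 1.02 to 1.21 (adjusted p from 0.127 to 0.247). With vehicle it was 0.60 (SE 0.15, adjusted p = 0.0907), called without Tet2KO vehicle library 1 (0.74, adjusted p = 0.0274). Ccl7 was 14.0, 12.9 and 13.2 CPM in WT and 14.5, 23.7 and 30.5 CPM in Tet2KO libraries with vehicle, and was not called (0.78, SE 0.27, adjusted p = 0.248). Tet2KO vehicle library 3 and Tet2KO LDL library 2 of batch 1 had 1537 and 1508 CPM of Col1a1 against 141 to 294 CPM in the other batch 1 libraries, and their Ccl7, at 30.5 and 24.99 CPM, was the highest of the set. Their Ccl12, at 1.84 and 2.71 CPM, was the lower or lowest of its group, and the part of stromal transcripts in these values was not tested.

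Few members passed the test in batch 1. Between Tet2KO and WT with vehicle 1 of 9 members was called, higher, where 1.89% of all genes were called, 0.730% higher and 1.16% lower. With LDL 2 of 9 were called, both higher, where 0.536% of all genes were called, 0.245% higher and 0.291% lower. Both counts include Ccl12, which passed the minimum count only through Tet2KO libraries. LDL against vehicle called 0 of the members and 0 of the 15481 genes tested in WT, in Tet2KO and for the difference between them (0% in each direction). At an unadjusted p under 0.05 these 3 comparisons held 707, 1126 and 236 genes, among them 3, 1 and 0 members, and DESeq2 called 73, 196 and 4 genes and no member. Ccl9 still lay higher with LDL in every batch 1 library, at 1648 and 1347 CPM against 986, 841 and 763 CPM in WT (log2 fold change 0.79, SE 0.21, adjusted p = 0.6) and at 1836 and 1425 CPM against 911, 1356 and 883 CPM in Tet2KO cells (0.63, SE 0.21, adjusted p = 0.478). Ccl6 in WT was 1028 and 927 CPM with LDL and 631, 531 and 528 CPM with vehicle (0.80, SE 0.26, adjusted p = 0.825). Over all genes tested, vehicle and LDL libraries of batch 1 did not overlap for 19.9% in WT and 19.1% in Tet2KO cells. Ccl2 and Ccl7 in WT lay lower with LDL in every library, with log2 fold changes of −0.53 (SE 0.17, adjusted p = 0.817) and −0.50 (SE 0.32, adjusted p = 1). On simulated data like this batch, 54% of 2-fold and 8% of 1.5-fold changes were recovered, against 94% and 61% in the main set, for LDL against vehicle in WT.

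**Figure D5:**
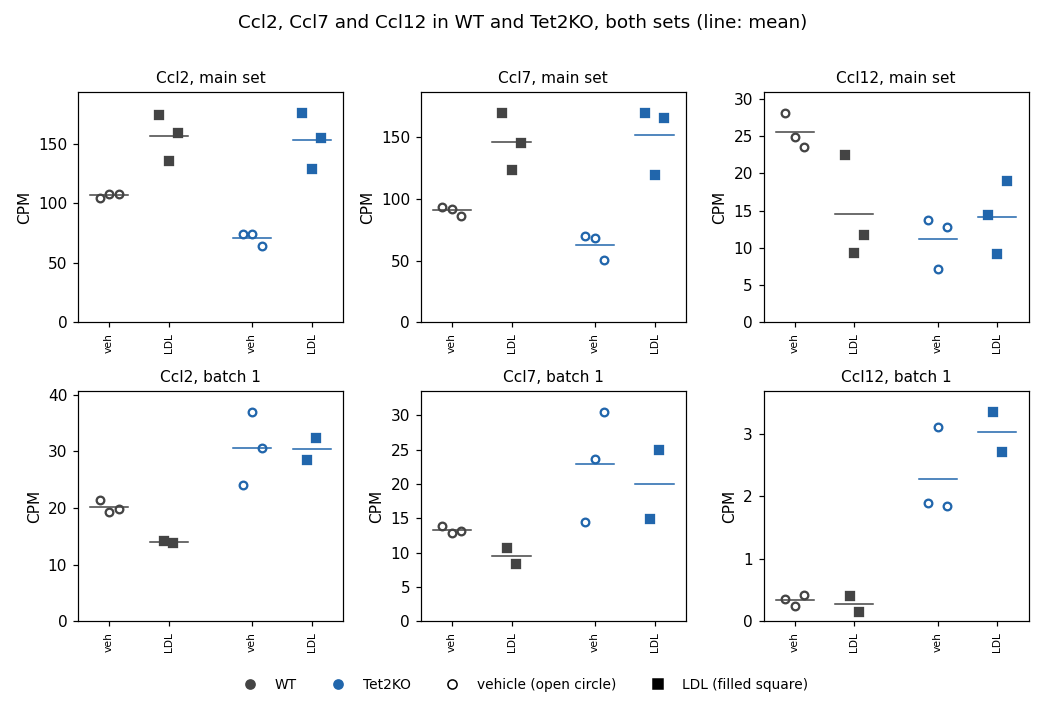
Levels of Ccl2, Ccl7 and Ccl12 (y axis, CPM from 0, each panel on its own scale) by library in WT and Tet2KO cells, with the main set above and batch 1 below, vehicle as open circles, LDL as filled squares and group means as lines. With vehicle the Tet2KO libraries lie below WT in the main set and above WT in batch 1 for the 3 genes.

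The remaining members of batch 1 overlapped between WT and Tet2KO libraries with vehicle. Ccl3 ran from 28.6 to 40.2 CPM in WT and from 18.9 to 48.3 CPM in Tet2KO libraries with vehicle, and Ccl4 from 10.8 to 18.7 CPM and from 12.9 to 37.7 CPM. Ccl5 ran from 2.05 to 6.00 CPM in WT libraries with vehicle, and in Tet2KO libraries it was 4.35, 15.4 and 3.07 CPM with vehicle and 24.3 and 6.94 CPM with LDL. With LDL Ccl4 and Ccl5 lay higher in both Tet2KO libraries than in both WT libraries, without a call (1.07 and 2.18, adjusted p = 0.429 and 0.373). Over all genes tested, 18.3% lay higher in this way and 35.6% did not overlap in either direction. Ccl22 ran from 2.00 to 2.87 CPM in WT and from 1.02 to 2.30 CPM in Tet2KO libraries with vehicle, beside dendritic cell marker sums of 70.3 to 124 CPM and 9.03 to 15.2 CPM. Of the 8 dendritic cell markers tested there, 1 was called lower and 7 were not called, with a median log2 fold change of −0.22. Their part in the Ccl22 values was not tested. Ccl24 had 0 to 2 counts per library.

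Receptors of these ligands were measured as well. Of 15 receptor genes 13 were tested in the main set. Ccr2, the receptor of Ccl2, Ccl7 and Ccl12, fell with LDL in all 4 genotypes, with log2 fold changes of −1.23 in WT, −1.26 in Dnmt3aKO, −1.57 in Tet2KO and −1.45 in Jak2VF cells. In WT libraries it was 204, 226 and 222 CPM with vehicle and 83.9, 114 and 80.5 CPM with LDL, and in Tet2KO libraries 478, 464 and 399 CPM and 140, 193 and 119 CPM. Ccr1, a receptor of Ccl3, Ccl5, Ccl6 and Ccl9, rose with LDL by 0.50, 0.49, 0.59 and 0.61 in the same order of genotypes, with all adjusted p between 1.9e-05 and 0.00018. With vehicle Ccr2 was higher than in WT in Dnmt3aKO (0.74, adjusted p = 0.0037) and Tet2KO cells (1.04, adjusted p = 0.00033). In all, 2 receptors rose and 3 fell with LDL in WT, 2 and 2 in Dnmt3aKO, 2 and 3 in Tet2KO, and 1 and 2 in Jak2VF cells. As shares of the 13 tested, these counts stand beside the 14.2%, 15.4%, 16.8% and 18.2% of all genes called, and in Jak2VF cells 3 of 13 is near that share.

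Of 10 other CC chemokine genes 6 were tested in the main set, and Ccl20, the ligand of Ccr6, was the one raised by LDL in all 4 genotypes. It was 0.437, 0.396 and 0.315 CPM in WT libraries with vehicle and 2.26, 2.56 and 2.92 CPM with LDL, and the log2 fold change was 2.74 in WT, 2.94 in Dnmt3aKO, 3.19 in Tet2KO and 2.42 in Jak2VF cells. With LDL it was higher than in WT in Dnmt3aKO (1.21, adjusted p = 0.018) and Tet2KO cells (1.28, adjusted p = 0.041). Ccl8, a relative of Ccl2 and Ccl12, was 87.9 CPM in WT LDL library 1, the library with high Ccl5, and 31.6 and 36.2 CPM in the others. In batch 1 Ccl8 was higher in Tet2KO than in WT with vehicle (3.63, adjusted p = 0.012), from 5.58 to 15.4 CPM against 0.488 to 0.952 CPM.

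Among 20 transcription factors and regulators of chemokine genes, all tested, 6 rose with LDL in WT, 4 in Dnmt3aKO, 4 in Tet2KO and 3 in Jak2VF cells, and 0, 1, 2 and 1 fell. Nfkbia and Nfkbiz, induced by NF-kappaB, rose in the 4 genotypes, Nfkbia by 0.97, 0.94, 1.07 and 0.59 and Nfkbiz by 0.83, 0.92, 0.97 and 1.16. Fos, a part of AP-1, rose by 1.70, 1.26, 1.75 and 1.46. Beside the same shares of all genes, 4 of 20 called in Jak2VF cells is near the 18.2% there. The median log2 fold change of the 20 genes was 0.24 in WT, 0.08 in Dnmt3aKO, 0.10 in Tet2KO and 0.11 in Jak2VF cells.

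As a description over the 24 libraries of the main set, which share treatment and genotype groups, the gene most like each member was sought by the Pearson correlation of log2 CPM. Ccl2 was most like Ccl7 (0.966), followed by Jdp2 (0.944) and Il6 (0.927), and Ccl7 was most like Jdp2 (0.972). Ccl9 was most like U90926 (0.983), Prl2c2 (0.977) and Slc6a12 (0.969). Ccl5 was most like the antigen presentation genes H2-D1 (0.901), Tap2 (0.894) and Psmb8 (0.893). Ccl4 was most like Rap2b (0.913), Snx2 (0.889) and Dgkz (0.883), Ccl12 most like Cnbd2 (0.85), Ccl6 most like Elmod3 (0.83) and Ccl22 most like Mcoln1 (0.888). Between members, Ccl7 and Ccl9 had 0.850, Ccl4 and Ccl12 0.826, Ccl2 and Ccl9 0.822, Ccl5 and Ccl6 0.714, and the neighbours Ccl6 and Ccl9 0.315. Ccl4 went against Ccl9 (−0.401) and Ccl7 (−0.386).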

How the data were processed

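RNA sequencing libraries of BMDM were used as 2 deposited tables of counts, whole numbers per gene and library, one for the main set (24 libraries) and one for batch 1 (10 libraries). The deposited names call the counts normalized, but the values are whole numbers whose totals differ between libraries, so they were taken to be unscaled counts. Reads were mapped to mm10 per the submitters' processing notes. Not given in the sources used here: aligner, counting tool, annotation and strand setting. Per the labels' protocols, ribosomal RNA was depleted and polyadenylated RNA selected. Library numbers are those of the sample titles, and 0 value columns were left out.

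A minimum of 10 counts in 3 or more libraries (2 or more for batch 1) left 19444 and 15481 genes, which were tested with edgeR 4.0.16 in R 4.3.3 (TMM scaling, quasi-likelihood test, 1 mean per group, all groups of a set in 1 fit, two-sided). p-values were adjusted by Benjamini-Hochberg over all genes tested, and a gene is called at an adjusted p under 0.05. The spread between libraries (common biological coefficient of variation) was 0.137 and 0.199. No 2 libraries were identical, and libraries of a group differed by more than sampling noise (chi-square per degree of freedom from 4.93 to 104). Over all genes tested, libraries of 2 compared groups did not overlap for 10.1% to 42.9% in the main set and 19.1% to 35.6% in batch 1. The fit was tested on simulated data. Alternatives were DESeq2 1.42.0, RLE scaling, no filter, a replicate block, the groups compared alone, 2 libraries left out together, and each library left out in turn. Positions and coding sequences are from GENCODE M21 and promoters from RefSeq. All 10 members are named, and in the other lists at least the called genes with the smallest adjusted p. For each member the most alike genes were sought among 10388 genes with a mean of at least 5 CPM, using log2 CPM with a prior count of 2. Results for a few of the other genes are not reported here. The members and lists were chosen with earlier results of these data known.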

Additional observations from a re-analysis of the deposited data

Results flagged for a closer look

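The LDL effect differed from that in WT cells, by the test of the difference itself, for Ccl3 in Dnmt3aKO (0.87 on the log2 scale), for Ccl6 in Dnmt3aKO (−1.19) and for Ccl6 in Jak2VF cells (−0.90). The Ccl3 difference held in 4 of the 12 analyses with 1 library left out, and the Ccl6 differences in all 12 each.

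Several effects had opposite directions in the main set and in batch 1, with no overlap between the libraries compared in either set. Lack of overlap in either direction was common over all genes tested. For LDL in WT it held for 24.8% in the main set and 19.9% in batch 1. For Tet2KO against WT with vehicle it held for 27.2% and 21.8%. The difference between the sets was not tested. LDL against vehicle in WT cells gave 0.55 in the main set and −0.53 in batch 1 for Ccl2, and 0.69 and −0.50 for Ccl7. Tet2KO against WT with vehicle gave −0.59 and 0.60 for Ccl2, −0.53 and 0.78 for Ccl7, and −1.17 and 2.69 for Ccl12. In batch 1 Ccl12 passed the minimum count only through Tet2KO libraries. Stromal marker sums, given with the levels, also differed between the sets, and their part was not tested.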

How the results depend on the processing

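No member's change turned its direction under any alternative where it was called in either setting. With 1 library left out, the number of members called for LDL against vehicle ran from 5 to 7 in WT, 4 to 5 in Dnmt3aKO, 3 to 3 in Tet2KO and 1 to 3 in Jak2VF. Against WT with vehicle it ran from 2 to 4, 3 to 4 and 4 to 5 for Dnmt3aKO, Tet2KO and Jak2VF, with LDL from 3 to 5, 1 to 2 and 1 to 4, and for the difference of the LDL effect from 1 to 3, 0 to 0 and 1 to 3. In batch 1 it ran from 0 to 2 for Tet2KO against WT with vehicle, from 0 to 1 with LDL, and from 0 to 0 elsewhere. The difference of the LDL effect in Jak2VF, 1 member called, gave 3 without the filter, 5 with DESeq2 and 0 with the groups compared alone, and that in Tet2KO, 0 called, gave 2 without the filter and 1 with DESeq2. That in Dnmt3aKO gave 1 without WT LDL library 3 and Tet2KO LDL library 3. Tet2KO against WT with LDL gave 2 without the filter and 0 with the groups compared alone, and Jak2VF against WT with LDL gave 1 with the groups compared alone. In batch 1, Tet2KO against WT gave 2 with vehicle under DESeq2, and 0 with LDL with the groups compared alone, where the cause was not tested. Whether the replicate numbers pair the libraries was left unresolved. Same-numbered vehicle and LDL libraries had residual correlations from −0.62 to 0.81 by title in the main set (6 of 12 pairs over 0.1), −0.82 to 0.81 by description, and −0.63 to 0.51 in batch 1. By title, 6 of the 12 pairs of the main set had the highest correlation at their own number. In batch 1 the 2 LDL libraries of a genotype mirror each other around their mean, so the check cannot decide there. With the title number as a replicate block the Jak2VF difference gave 3 members and batch 1 Tet2KO against WT with LDL gave 0, and with the description number as a replicate block the Jak2VF difference gave 4. For LDL in WT the number called went from 7 to 9 with DESeq2 and with the title block, Ccl3 and Ccl12 being added, and to 8 with the description block. The description block also called Ccl7 in Tet2KO against WT with vehicle (adjusted p = 0.0469).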
